A study of Mus musculus with 18 samples.

Results

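Retained-intron transcripts are annotated RNAs that keep a stretch which other transcripts of their gene splice out. The members were taken as every entry of the transcript table with the GENCODE biotype retained_intron, leaving out genes whose names start with Rpl, Rps or Srsf. They were 16642 transcripts of 7178 genes, out of 115125 transcripts of 47643 genes. A count was present in at least 1 library for 15550 of them, and 1092 were at 0 in all 18 libraries. A single such transcript was annotated in 3132 of the genes and 2 or more in 4046, with at most 20 in a gene. Their median length was 859 bases, against 1940.5 bases for the protein-coding transcripts of the same genes.

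The study tested reverse-transcription primers for RT-RamDA, a way of amplifying cDNA from very little RNA, on RNA of the mouse embryonic stem cell line 5G6GR grown without feeder cells. Each of 5 primer sets was used on 10 pg of diluted total RNA in 3 libraries. One set, N6, was random hexamers; NSR was the not-so-random primers, dT oligo-dT alone, and N6dT and NSRdT joined oligo-dT to either kind. The comparison libraries, called bulk here, were 3 total RNA libraries from 200 ng of RNA with ribosomal RNA removed. All RT-RamDA libraries had 17 cycles of PCR and the bulk libraries 7. Since the libraries were made from dilutions of purified RNA and no label says that they came from separate cultures, p-values measure the spread between libraries, which may be technical. In these bulk RNA samples, fewer cells of a type and less RNA per cell cannot be told apart.

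Most introns are removed while or soon after the RNA is made. Some polyadenylated RNAs keep particular introns and stay in the nucleus, and genes of the splicing machinery and of the O-GlcNAc enzymes are known for such introns. Oligo-dT starts reverse transcription at poly(A) tails and at internal runs of A, whereas random and not-so-random primers can start along the whole RNA, including RNA without a tail. A retained-intron entry in the annotation is often a fragment, and it shares exons with the coding transcripts of its gene. An estimated count for it therefore holds reads given to it from shared exons as well as reads from the intron itself.

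Of the members, 16231 were found with the same identifier and length in the GENCODE vM21 annotation of GRCm38, the mm10 build. They held 6189 distinct introns that lie whole inside a member and are spliced out of a coding transcript of the same gene. Such introns were in 4594 of the matched members, and 11637 had none. An intron counted only if it fitted inside an exon of a member with 10 bases on each side. This selection limits the length, so the next values do not compare retained introns in general with others. These introns had a median length of 270 bases (quartiles 118 and 705), and 101481 other introns of the same coding transcripts had a median of 1482 bases (quartiles 515 and 3819). GT at the start and AG at the end were present in 97.7% of the 6189. The first 6 bases were GTGAGT in 14.2% and GTAAGT in 9.27%, read on the strand of the gene. The Clk1 and Clk4 introns beside their alternative exon are shown because they are the textbook case of introns kept in nuclear RNA, and Clk1 and Clk4 encode kinases that phosphorylate splicing factors. In the lines that follow, the last 10 exon bases are in lower case and the first 10 intron bases in capitals, 5′ to 3′, from the GENCODE transcripts.
Clk1-003, intron of 871 bases, chr1:58420212-58421082, minus strand: ttcacacgggGTATGAGTGC
Clk4-014, intron of 1055 bases, chr11:51272023-51273077, plus strand: gtcgcattcgGTATGAGTGG
Clk1-003, intron of 387 bases, chr1:58419734-58420120, minus strand: agtgcaagatGTATAGAATA
Clk4-014, intron of 391 bases, chr11:51273169-51273559, plus strand: agagcaagatGTATAGAATA
The introns after the alternative exon began with the same 10 bases in both genes. GTATAG opened 0.178% of the 6189 introns, which were 11, and GTATGA opened 0.937%.

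Short introns of transcripts with high or changing counts are printed whole, with 10 exon bases in lower case on each side and with the first 6 and last 3 intron bases in capitals. They are shown because the results on nucleolin, Eef1a1, Tuba1b and Pfas below turn on the transcripts that keep them.
Ncl-002, 190 bases, chr1:86352320-86352509, minus strand: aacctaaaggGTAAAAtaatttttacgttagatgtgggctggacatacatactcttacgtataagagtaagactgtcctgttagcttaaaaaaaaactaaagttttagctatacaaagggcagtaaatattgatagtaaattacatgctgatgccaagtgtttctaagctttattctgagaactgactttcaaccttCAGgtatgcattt
Eef1a1-005, 89 bases, chr9:78479535-78479623, minus strand: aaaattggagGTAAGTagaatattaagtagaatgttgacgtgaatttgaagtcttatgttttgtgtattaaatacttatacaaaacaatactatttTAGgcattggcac
Tuba1b-002, 132 bases, chr15:98932841-98932972, minus strand: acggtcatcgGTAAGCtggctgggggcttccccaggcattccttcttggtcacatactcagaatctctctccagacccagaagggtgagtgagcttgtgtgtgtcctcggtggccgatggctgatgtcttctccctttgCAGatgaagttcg
Pfas-004, 258 bases, chr11:68993039-68993296, minus strand: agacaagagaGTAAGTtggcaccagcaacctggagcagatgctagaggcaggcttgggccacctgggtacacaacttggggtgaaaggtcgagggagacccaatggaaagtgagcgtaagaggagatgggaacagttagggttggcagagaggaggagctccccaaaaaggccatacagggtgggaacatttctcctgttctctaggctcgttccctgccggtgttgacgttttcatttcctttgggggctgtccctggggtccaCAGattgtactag
Their GC contents were 32.63%, 23.6%, 56.06% and 55.81% in that order, which spans the median of 51.5% over all 6189. The Ncl-002 intron opens with GTAAAA, the Eef1a1-005 and Pfas-004 introns with GTAAGT and the Tuba1b-002 intron with GTAAGC.

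Library totals ran from 5333546 to 10234690 estimated counts. Ribosomal and mitochondrial RNA took 44.9% to 54.7% of them in N6 and NSR, 38.3% to 51.8% in N6dT and NSRdT, 10.1% to 10.6% in dT and 12.3% to 13.1% in bulk. All 6 embryonic stem cell markers checked were present in every group, and markers of fibroblast feeder cells summed to at most 9.003 CPM (counts per 1000000 counts of the library). Primitive endoderm markers summed to 356 to 716 CPM in the RT-RamDA libraries and to 838 to 7721 CPM in bulk, where replicate 2 was the high one, so bulk results are also given without it. The part of this in the results was not tested.

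Retained-intron transcripts held a smaller part of their genes' counts with oligo-dT alone than with random primers. The share of all counts of the 7178 genes was 13.9%, 14.1% and 14.3% in the 3 N6 libraries and 14.4%, 13.9% and 14.1% in NSR. In dT it was 7.68%, 8.00% and 7.85%. In N6dT it was 12.0%, 12.1% and 11.8%, and in NSRdT 12.2%, 12.2% and 12.2%. The bulk libraries had 11.03%, 11.6% and 11.8%. The dT libraries were thus the lowest, the N6 and NSR libraries the highest and overlapping with each other, and the libraries with both kinds of primer lay between, next to bulk.

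The 6 libraries made with random primers alone were 6.29 percentage points above the 3 dT libraries, which did not overlap with them (exact permutation test, two-sided, p = 0.0119, the smallest that 84 arrangements allow; adjusted p = 0.0306 over 18 tests). Adding oligo-dT to random primers went with a share 2.04 points lower, in all 6 libraries against all 6 without it (exact permutation within primer type, two-sided, p = 0.005, adjusted p = 0.018). Not-so-random primers differed from hexamers by 0.115 points (exact permutation, p = 0.255), less than the spread between libraries. All 15 RT-RamDA libraries together differed from bulk by 0.585 points (exact permutation, p = 0.78), an average over primer sets that lie on both sides of bulk. N6 was 2.65 points above bulk and dT 3.63 points below, without overlap. With 3 libraries against 3, the exact test cannot go below p = 0.1, and both gave that value. When each gene counted equally, over 3058 genes with 20 counts or more in every library, the mean shares were 15.9% in N6, 15.7% in NSR, 9.60% in dT, 13.8% in N6dT, 14.1% in NSRdT and 13.5% in bulk. With counts divided by transcript length, the differences were larger: 9.76 points for random primers against dT, -3.64 for oligo-dT added, 4.82 for N6 against bulk and -4.84 for dT against bulk.

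**Figure D1:**
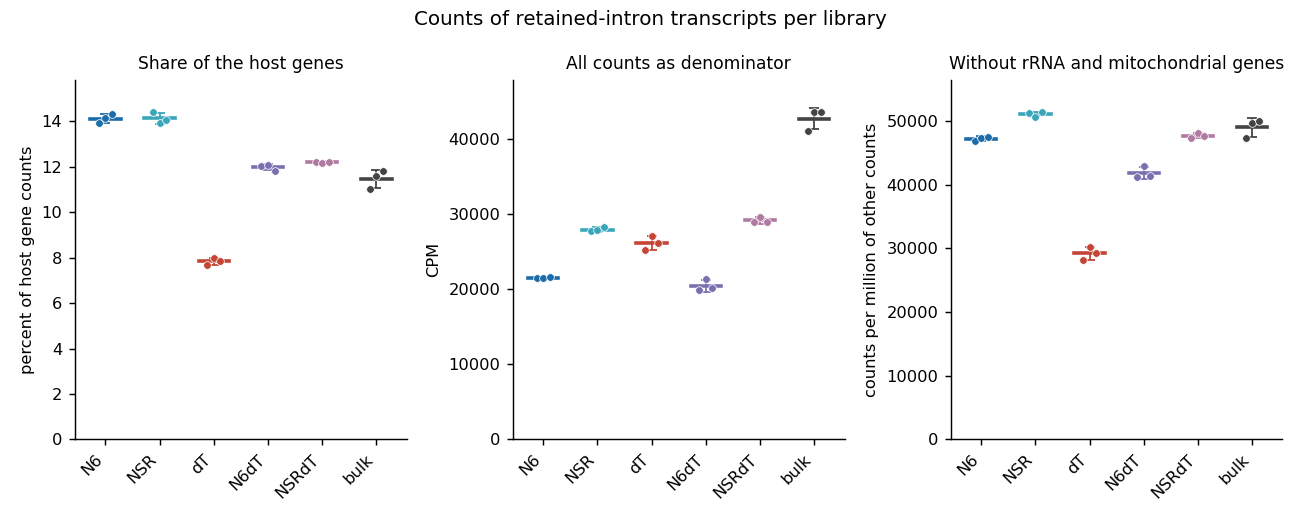
Retained-intron transcripts by library, with points for the 3 libraries of a group, thick lines for the mean and error bars of 1 SD. The panels show the percent of the host genes' counts, the summed CPM, and the summed CPM with ribosomal and mitochondrial RNA taken out of the denominator. The dT libraries sit at 7.68% to 8.00% of host gene counts, below all other groups, while their plain CPM lies within the range of the other RT-RamDA groups.

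The summed CPM gave another order than the share. Members summed to 21517 ± 72.3 CPM in N6 (SD, n = 3), 27956 ± 274 in NSR, 26207 ± 913 in dT, 20461 ± 783 in N6dT, 29182 ± 441 in NSRdT and 42752 ± 1401 in bulk. On this scale random primers and dT did not differ beyond their spread (random primers minus dT -1470.2 CPM, exact permutation p = 0.464). The difference was -3279.5 CPM with the Rpl, Rps and Srsf transcripts included (adjusted p = 0.343) and -6074.3 per 1000000 with counts divided by transcript length (adjusted p = 0.0804). With ribosomal and mitochondrial RNA taken out of the denominator, the mean CPM was 47216 in N6, 51055 in NSR, 29217 in dT, 41818 in N6dT, 47668 in NSRdT and 49005 in bulk, and random primers were 19919 CPM above dT (exact permutation, adjusted p = 0.0268). Members detected with a count after all libraries were thinned to the same depth were on average 6508 in N6, 6802 in NSR, 4001 in dT, 6625 in N6dT, 6837 in NSRdT and 11713 in bulk. Those found in all 3 libraries of a group were 2951, 3214, 1277, 3058, 3204 and 9587 in the same order, so that detection repeated least among dT libraries and most in bulk. Random primers exceeded dT by 2654 detected members (exact permutation, p = 0.0119), and not-so-random primers exceeded hexamers by 253 (exact permutation, p = 0.005, adjusted p = 0.018). Counting only members with 5 counts or more, these differences were 1508.3 and 528.83, with the same adjusted p-values. With ribosomal and mitochondrial RNA taken out before thinning, not-so-random primers exceeded hexamers by 111.83 members. That difference missed the threshold (exact permutation, adjusted p = 0.2077).

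Gene by gene, the typical gene gave little to its retained-intron transcripts. Over the 3058 genes with 20 counts or more in every library, the median share was 9.58% in N6, 9.59% in NSR, 3.06% in dT, 8.39% in N6dT, 8.22% in NSRdT and 8.33% in bulk. Genes with under 1% were 346 in N6, 352 in NSR and 1063 in dT, against 225 in bulk. Genes with 50% or more were 181 in N6, 174 in NSR, 127 in dT and 109 in bulk. The group mean was higher in N6 than in dT for 2296 of the 3058 genes. In 22 genes the share was 50% or more in all 18 libraries, among them Ncl, Gas5, Snhg1, Clptm1 and Krr1. Ncl encodes nucleolin, an abundant nucleolar protein, and Gas5 and Snhg1 are long non-coding hosts of small nucleolar RNAs. The Ncl share was 73.9%, 79.0% and 78.6% in N6, 80.6%, 80.0% and 77.2% in dT, and 67.7%, 68.6% and 67.2% in bulk, so it was high with every primer set. Ncl-002 is annotated with 3072 bases over chr1:86350495-86359364, most of them exons it shares with the coding transcript. It keeps the intron printed above and another whole intron of 492 bases. The coding transcript Ncl-001 has 8202 bases, and Ncl-002 ends 5776 bases from the nearest coding 3′ end. How reads of the shared exons were divided between these transcripts was not tested, so the Ncl share does not measure how often the introns are kept.

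The test for single genes set the counts of a gene's retained-intron transcripts against the counts of its other transcripts, so that the total level of the gene and the depth of the library drop out. The value is the log2 change of that ratio. For comparisons among primer sets, genes were tested where both parts had a mean of 1 CPM or more in bulk. Random primers alone gave a higher ratio than dT for 373 of 3961 genes tested and a lower one for 20 (edgeR quasi-likelihood test, adjusted p under 0.05). Over all gene and biotype pairs, 5.67% were higher and 4.73% lower, and among the members 9.42% were higher and 0.505% lower. The median change was 2.21 over the members and 0.40 over all pairs. When pairs with no count on 1 side were put at the bound that 3 counts allow, the medians were 2.10 and 0.29. Transcripts of the biotype processed_transcript, which also lack an open reading frame, gave 9.13% higher and 2.15% lower, with a median of 1.97 in the same direction. Protein-coding transcripts went the other way, with 1.17% higher and 9.29% lower and a median of -1.80.

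The position of a transcript's 3′ end divided the members. Of the 16231 matched members, those that end inside an intron of the coding transcripts (8389) took 7.11% of the host genes' counts in N6, 7.11% in NSR, 1.87% in dT, 5.93% in N6dT, 5.93% in NSRdT and 5.49% in bulk. Those that end within 100 bases of a coding transcript's 3′ end (2610) took 2.03% in N6, 2.02% in NSR, 2.78% in dT, 2.21% in N6dT, 2.34% in NSRdT and 2.44% in bulk. The other 5232 took 4.55% in N6, 2.85% in dT and 3.17% in bulk. Oligo-dT alone thus gave the lowest mean of all groups to transcripts that stop in an intron. It gave the highest to those that stop near the 3′ end of a coding transcript. Any coding transcript of the gene counted for this, so such an end need not be the last one of the gene. Among the counts of the members, intron-ending transcripts made up 50.3% in N6 and 23.9% in dT, and those at a coding 3′ end 14.4% and 35.5%. These group means are given as a description, with no test.

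**Figure D2:**
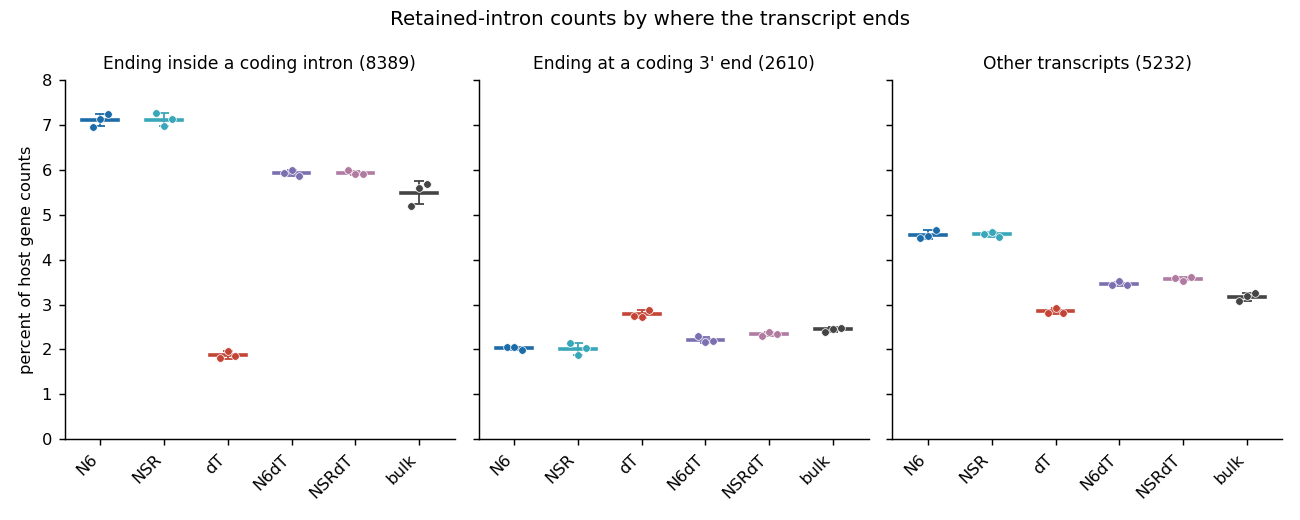
Percent of host gene counts taken by retained-intron transcripts of each position class in each group, with points for the libraries, thick lines for the mean of 3 and error bars of 1 SD. Transcripts ending inside an intron are at a mean of 1.87% in dT, and those ending at a coding 3′ end at 2.78%.

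The calls from the fit of each transcript's own abundance were also counted by class, with no test between the classes. With random primers against dT, 418 of 6876 members tested were higher and 55 lower (edgeR quasi-likelihood test, adjusted p under 0.05), where 4.79% of all transcripts were higher and 3.37% lower. With scaling by library totals alone the median of all transcripts moved by -0.65 on the log2 scale, and the calls were 368 higher and 148 lower. Of the intron-ending transcripts 308 of 3703 were higher and 0 lower. Of those at a coding 3′ end 28 of 1245 were higher and 39 lower, and of the others 69 of 1757 were higher and 15 lower. Among the 6705 tested members matched to GENCODE vM21, 405 were called higher and 54 lower. Of those higher, 76.0% end inside an intron, against 55.2% of the matched members tested. Of those lower, 72.2% end at a coding 3′ end, against 18.6% of the matched members tested. Median lengths were 2432 bases for transcripts called higher, 859 for those called lower and 1793 for all tested. A run of 12 or more A bases was present in 9.14% of those higher, 0 of those lower and 5.37% of all tested.

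Genes with nearly no retained-intron counts under oligo-dT alone, by a rule that took the 8 largest called changes, included Etnk1 (ethanolamine kinase), Cct5 (a subunit of the CCT chaperonin), Tnrc6a (a partner of Argonaute), Zranb2 (a splicing factor), Prmt5 (an arginine methyltransferase) and Suz12 (a subunit of Polycomb repressive complex PRC2). The Etnk1 share was 29.0%, 24.5% and 40.7% in N6, 19.96%, 35.5% and 21.1% in NSR, and 0.0331%, 0% and 0% in dT. In bulk it was 20.8%, 20.1% and 21.1%, so dT stood apart from every other group. The Cct5 share was 5.79%, 4.89% and 7.58% in N6 and 0% in each dT library, at least 468-fold higher with random primers (660 counts against 0, with a floor of 3 counts over the dT group). On the same scale Suz12 was at least 280-fold higher, Tnrc6a at least 279-fold, Prmt5 at least 250-fold and Zranb2 at least 219-fold. In 1 NSR library, replicate 2, the Suz12 share was 6.46e-06%, while the other 5 random-primed libraries had 6.62% to 11.8%. The same rule named Txlna (a syntaxin-binding protein) and Kif18a (a mitotic kinesin), and all 8 passed the test with adjusted p between 3.48e-06 and 0.00349 (edgeR).

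Ogt is a gene in which a kept intron is well known, and it encodes the enzyme that adds O-GlcNAc to proteins. Its share was 26.1%, 40.3% and 34.5% in N6, 33.6%, 34.7% and 20.5% in NSR, and 2.36%, 1.67% and 1.99% in dT. N6dT had 27.7%, 21.5% and 31.8%, NSRdT 22.3%, 23.2% and 29.1%, and bulk 24.4%, 23.2% and 25.4%. Only the dT libraries fell outside the range of the rest, which was 20.5% to 40.3%. The log2 ratio change was 4.49 ± 0.56 (SE, adjusted p = 2.57e-04). Its most abundant member, Ogt-004, spans chrX:101640108-101654586 on the plus strand and ends inside an intron 28354 bases before the nearest coding 3′ end. Ogt-004 had 61.4, 69.4 and 67.6 CPM in N6 against 6.25, 3.31 and 4.43 CPM in dT. Ogt-003, Ogt-004 and Ogt-005 hold no whole intron of a coding transcript, so the Ogt share does not measure a whole kept intron.

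Splicing genes other than those named Srsf were counted by list. In the SR-related list 4 of 14 genes tested were higher with random primers and 0 lower (Luc7l3, Rbm39, Srrm1 and Tra2a), with a median change of 2.17. In the core spliceosome 4 of 23 were higher and 0 lower (Prpf38b, Sf3b1, Snrpb and Snrpd2), with a median of 2.36. The Tra2a share, of a gene for a splicing activator, was 44.5%, 30.4% and 30.6% in N6, 7.83%, 4.69% and 0.227% in dT, and 27.7%, 29.7% and 29.3% in bulk. The Sf3b1 share, of a component of the U2 particle, was 26.3%, 31.7% and 24.9% in N6 and 7.32%, 3.79% and 10.3% in dT. For both genes the dT libraries lay below all others, with changes of 4.19 ± 0.97 (adjusted p = 0.0131) and 2.36 ± 0.56 (adjusted p = 0.0147). The calls for Prpf38b and Rbm39 were lost in 17 and 8 of 21 alternative settings.

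The splicing kinases had 0 of 6 genes called in either direction, with a median of 2.15. The Clk1 share was 65.1%, 81.8% and 58.0% in N6, 48.6%, 53.9% and 42.6% in dT, and 59.6%, 61.5% and 61.7% in bulk. The dT libraries were the lowest but still gave much of the gene to these transcripts, and the change of 1.27 ± 0.67 did not pass the test (adjusted p = 0.227). Clk4 had 87.6%, 70.5% and 70.1% in N6 and 63.8%, 18.9% and 37.3% in dT (2.04 ± 1.1, adjusted p = 0.239). Clk1-003 and Clk4-014, which keep the introns shown above, had changes of 0.36 ± 0.39 and -0.36 ± 0.68 in abundance (adjusted p = 0.625 and 0.839), against the median of 0.62 over all transcripts.

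**Figure D3:**
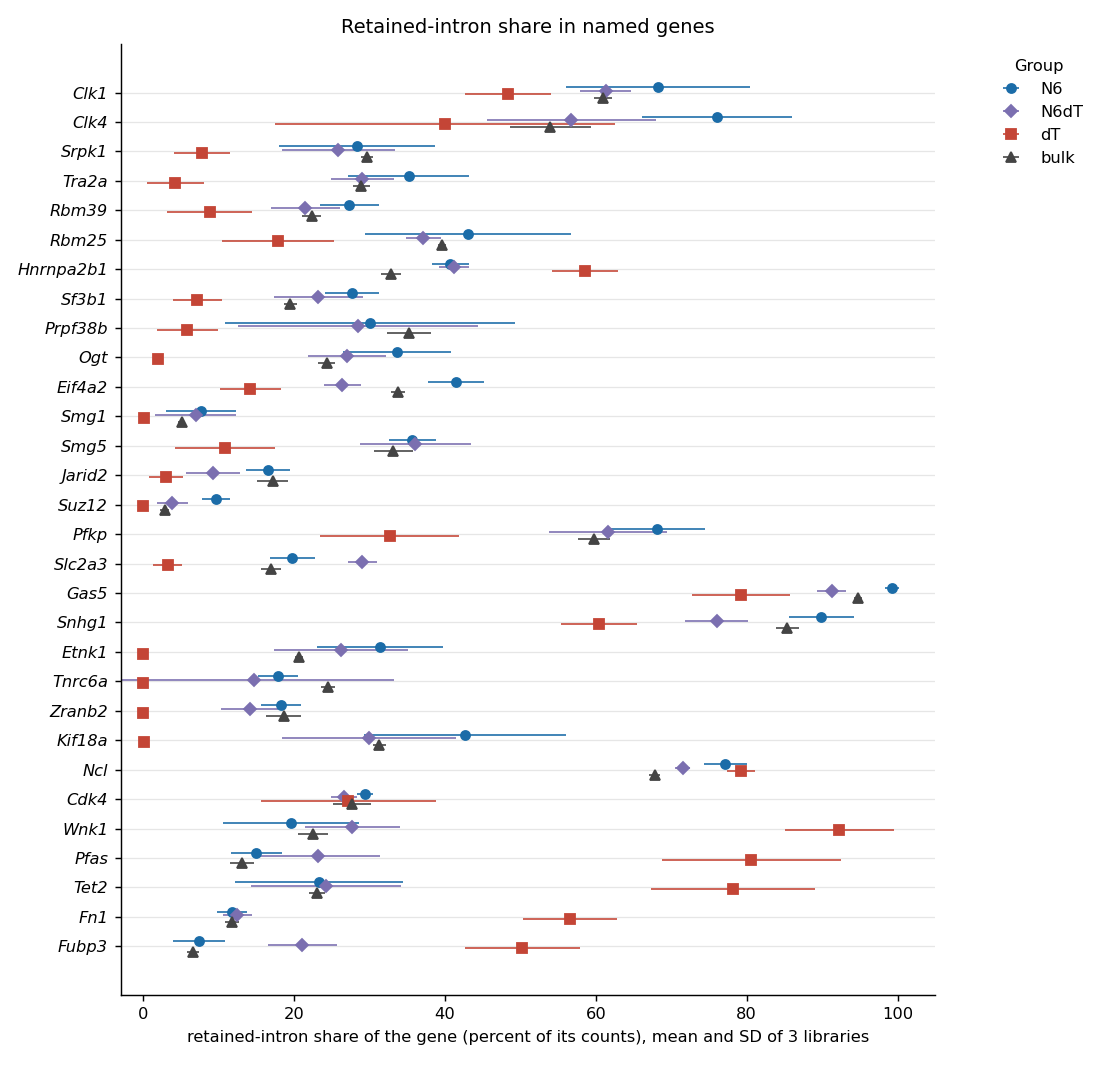
Retained-intron share of the gene's counts, in percent on the horizontal axis, for named genes on the vertical axis, with the mean and SD of 3 libraries for N6, N6dT, dT and bulk. The dT mean lies to the left of the others in most of the genes shown, as for Etnk1 and Ogt, and far to their right for Wnk1, Pfas, Tet2, Fn1 and Fubp3.

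Other lists had medians above 0 as well, with calls in 0 to 5 genes each. Glycolysis genes had 5 of 10 higher and 0 lower (Eno1, Ldha, Pfkp, Slc2a3 and Tpi1; median 2.75). Translation factors had 5 of 15 higher and 0 lower (Eef1a1, Eif3m, Eif4a2, Eif4g2 and Eif4h; median 2.29), and aminoacyl-tRNA synthetases 3 of 15 higher and 0 lower (Aars, Sars and Yars; median 2.30). The Pfkp call was lost in 9 of 21 alternative settings. Among nonsense-mediated decay factors Smg1 and Smg5 were higher and 0 lower of 5 (median 3.08), and the Smg5 call was lost in 8 of 21 alternative settings. Of the hosts of small nucleolar RNAs and other long non-coding RNAs, Gas5, Snhg1 and Snhg8 were higher and 0 lower of 5 (median 2.62). Chromatin and DNA methylation genes had 5 of 24 higher (Dnmt3b, Eed, Ehmt1, Jarid2 and Suz12) and 1 lower (Tet2; median 1.45). The cell cycle list had 1 of 19 higher (Bub1) and 1 lower (Mcm3; median 1.49), and the DEAD-box and RNA export list 1 of 10 higher (Ddx3x) and 1 lower (Rbm8a; median 0.37). Pluripotency genes had 4 tested, 0 called and a median of 2.06. These counts stand beside 9.42% higher over all genes with members, and nothing is called particular to a list.

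Among the genes tested, those with a higher share under oligo-dT than with random primers alone were few. Genes entered this fit only where both parts had a mean of 1 CPM or more in bulk. A gene with members high in dT alone could thus be left out. Ccp110 was such a gene, with a mean share of 90.69% in dT and 0% in N6, and 0.555 CPM in bulk. In Wnk1, Pfas, Tet2 and Fubp3 a member ended within 100 bases of a coding 3′ end, and another member of each gene ended inside an intron. Positions are not given here for Ubr4, Pds5b, Nfrkb, Prrc2a and Rbm8a. Whether the position of a member goes with the direction of its gene was not tested. The rule named Wnk1 (a kinase of ion transport), Ubr4 (a ubiquitin ligase), Pfas (an enzyme of purine synthesis), Pds5b (a cohesin regulator), Nfrkb, Prrc2a, Fubp3 and Rbm8a (a core protein of the exon junction complex). The calls for Fubp3, Rbm8a and Prrc2a were lost in 10, 8 and 4 of 21 alternative settings. The mean Rbm8a share was 12.32% in dT, 12.49% in N6dT, 14.49% in NSRdT and 14.06% in bulk. It was 0.7109% in N6 and 1.006% in NSR, so dT was above these 2 groups only. The Wnk1 share was 29.3%, 17.8% and 11.6% in N6, 27.2%, 15.5% and 18.9% in NSR, and 84.1%, 95.4% and 97.4% in dT, with 20.7%, 24.6% and 22.1% in bulk. The Ubr4 share was at most 0.4003% in the 6 random-primed libraries, 17.6%, 9.33% and 18.01% in dT, and 0.757%, 0.725% and 0.638% in bulk. In both, dT stood far above all other groups, with changes of -6.07 ± 0.73 (adjusted p = 1.83e-04) and -6.69 ± 0.91 (adjusted p = 4.33e-04). The Pfas share was 13.6%, 18.8% and 12.6% in N6 and 93.7%, 70.3% and 77.9% in dT (-4.84 ± 1.01, adjusted p = 0.00693). Pfas-004, the transcript whose kept intron is printed above, ends 3 bases from a coding 3′ end and had 81.3, 44.9 and 38.7 CPM in dT against 0.857, 1.28 and 0 CPM in N6, although its own change of -4.62 ± 1.38 missed the threshold (adjusted p = 0.0522). Tet2, a DNA demethylation enzyme, had 19.0%, 35.9% and 14.96% in N6 and 84.97%, 65.6% and 83.9% in dT (-3.64 ± 0.67, adjusted p = 0.00337).

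Within 8 genes, transcripts of the same gene went opposite ways, out of 346 genes with a member called higher and 51 with a member called lower. In Hnrnpa2b1, which encodes an RNA-binding protein of nascent transcripts, Hnrnpa2b1-004 had 53.1, 55.9 and 58.7 CPM in N6 and 2.49, 0 and 6.93 CPM in dT. Hnrnpa2b1-008 had 64.5, 73.6 and 86.4 CPM in N6 and 483, 471 and 483 CPM in dT. The first keeps 4 whole introns over chr6:51465818-51469884 and ends 2346 bases before the nearest coding 3′ end, and the second ends 21 bases from one. The changes were 5.20 ± 0.95 (adjusted p = 0.00247) and -1.69 ± 0.16 (adjusted p = 2.86e-06), and Hnrnpa2b1-012, which ends 40 bases from a coding end, had -2.19 ± 0.22. The share of the whole gene changed by -0.98 ± 0.36 and did not pass the test (adjusted p = 0.0929).

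Fn1, the gene of the matrix protein fibronectin, showed the same split. Fn1-011 ends inside an intron, 18573 bases before the nearest coding 3′ end, and had 46.4, 40.8 and 60.0 CPM in N6 against 13.2, 29.8 and 9.27 CPM in dT (2.57 ± 0.40). Fn1-012 ends 2 bases from a coding end (chr1:71585526-71609567) and had 5.62, 19.2 and 18.1 CPM in N6 against 414, 505 and 376 CPM in dT (-3.76 ± 0.59). The groups did not overlap in either transcript. In Tfrc, the transferrin receptor, Tfrc-005 had 0 CPM in all dT libraries and was at least 75.7-fold higher with random primers (354 counts against 0), while Tfrc-004, which ends 4 bases from a coding end, had 131, 227 and 252 CPM in dT against 13.2, 9.76 and 4.17 CPM in N6. The other genes with both directions were Hnrnpk, Ccnl2, Mcm10, Cdk4 and Gas5. Of their calls, those for Ccnl2-002, Hnrnpk-003, Gas5-021 and Gas5-025 were lost in 11 to 16 of 21 alternative settings, and that for Cdk4-007 in 14 of 20. The Mcm10-008 call was lost in 6 of 20 settings, the Ccnl2-006 call in 4 of 20 and the Cdk4-008 call in 1 of 21. These 8 genes were singled out after their values were seen.

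**Figure D4:**
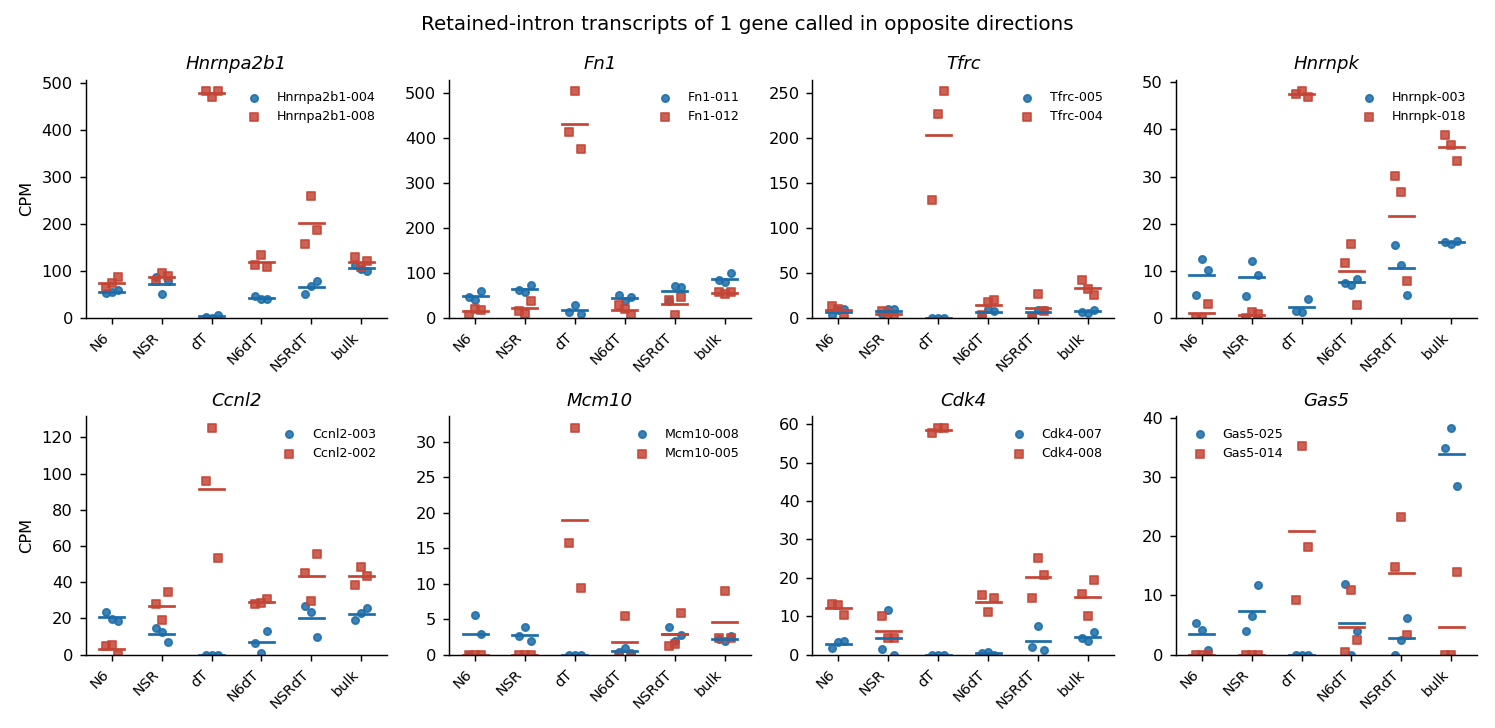
CPM per library, on linear axes from 0, for pairs of retained-intron transcripts of the same gene, with circles for the one called higher with random primers than with dT, squares for the one called lower and lines for the group means. In Fn1 the intron-ending transcript is lower in dT, and the one ending at a coding 3′ end reaches 376 to 505 CPM in dT against at most 38.2 CPM with random primers.

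Adding oligo-dT to random primers lowered the retained-intron ratio in 6 of 3961 genes tested and raised it in 0 (edgeR quasi-likelihood test). Those lowered were 0.151% of the members, near the 0.135% lower over all pairs, of which 0.119% were higher. The count is thus not particular to the members. The median over the members was -0.24. The 6 were Eef1a1 (elongation factor), Tuba1b (alpha tubulin), Tpt1 (the translationally controlled tumour protein), Ppia (cyclophilin A), Gnb2l1 (the ribosome scaffold RACK1) and Btf3 (a nascent-chain factor). The Eef1a1 share was 18.4%, 21.7% and 20.8% in N6 and 28.6%, 29.1% and 27.6% in NSR. With oligo-dT added it was 6.08%, 4.13% and 2.91% in N6dT and 3.13%, 4.30% and 2.56% in NSRdT, and it was 0.465%, 0.798% and 0.660% in dT alone. The change on adding oligo-dT was -3.05 ± 0.22 (adjusted p = 1.41e-06). The Tuba1b share was 58.8%, 49.4% and 56.0% in N6 and 28.03%, 22.2% and 20.9% in N6dT (-1.90 ± 0.30, adjusted p = 0.00775). Btf3 changed by -3.99 ± 0.73, Ppia by -2.55 ± 0.38, Gnb2l1 by -2.30 ± 0.34 and Tpt1 by -1.98 ± 0.30. In all 6 genes the libraries with and without oligo-dT did not overlap. These genes have many near-identical copies in the genome, and a quantifier can divide reads between such copies, so their values are uncertain. The Btf3 call was lost in 11 of 21 alternative settings.

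**Figure D5:**
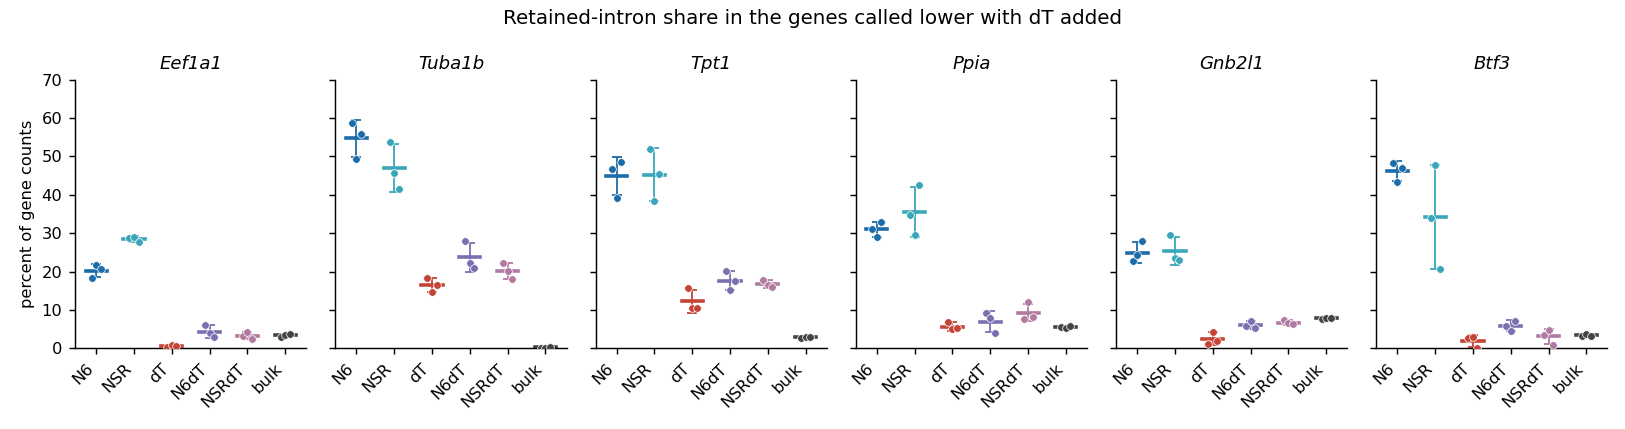
Retained-intron share, in percent of the gene's counts, for the 6 genes whose ratio fell when oligo-dT was added, with points for the libraries, lines for the mean of 3 and error bars of 1 SD. In each gene the N6dT and NSRdT libraries lie below the N6 and NSR libraries.

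In the abundance of single transcripts, adding oligo-dT raised 10 of 6876 members and lowered 5. These were 0.145% and 0.0727% of the members, against 0.888% and 0.172% of all transcripts. Of the 10 raised, 7 end at a coding 3′ end. Hnrnpa2b1-008 was among those raised (0.70 ± 0.13, adjusted p = 0.0133), with 64.5, 73.6 and 86.4 CPM in N6 and 112, 134 and 109 CPM in N6dT. Eef1a1-005, with its short intron shown above, fell by 3.55 on the log2 scale (SE 0.30, adjusted p = 3.47e-06), from 450, 552 and 526 CPM in N6 to 72.8, 80.1 and 44.3 CPM in N6dT. Not-so-random primers and hexamers could not be distinguished by this test: 0 of 3961 ratios were called in either direction, as were 0% of all pairs. The count at an unadjusted p under 0.05 was 39 higher and 52 lower, and limma called 0. In abundance 0 of 6876 members were called (0.0115% and 0.0345% of all transcripts), with 149 higher and 195 lower at an unadjusted p under 0.05, and DESeq2 called 8 higher and 14 lower.

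Against bulk, the ratio was lower in dT for many genes, while the N6 counts were near the share over all pairs. These comparisons share the bulk libraries and also differ in input, kit, depletion and PCR cycles, which cannot be told apart from the primers. Genes entered each of these fits by their mean over the same 6 libraries, so a gene could enter through 1 group alone. N6 had a higher ratio than bulk in 33 of 3615 genes and a lower one in 10 (0.913% and 0.277% of members, against 1.13% and 1.09% of all pairs; median 0.01). Without bulk replicate 2 the counts were 5 and 0, and without replicate 1 or 3 they were 6 or 5 and 0. The dT libraries had a higher ratio in 69 of 3614 genes and a lower one in 570 (6.68% and 9.36% of all pairs; median -2.08). With any single bulk library left out, 0 genes were called (without replicate 2, 106 higher and 706 lower at an unadjusted p under 0.05, by edgeR), while the medians were between -2.16 and -2.11. In abundance, N6 had 61 of 5849 members higher and 35 lower (1.04% and 0.598%, against 1.86% and 2.79% of all transcripts), and dT had 106 of 5903 higher and 1374 lower (4.01% and 16% of all transcripts). Without bulk replicate 2 these were 14 and 0, and 10 and 3. Scaling by library totals alone moved the median of all transcripts by -1.18 for N6 and gave 49 members higher and 574 lower.

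Some of the genes above bulk were those with near-identical copies. The Tuba1b share was 0.218%, 0.225% and 0.329% in bulk, against 58.8%, 49.4% and 56.0% in N6 and 18.3%, 14.7% and 16.5% in dT. The Tpt1 share was 2.65%, 3.07% and 2.87% in bulk, against 46.8%, 39.3% and 48.6% in N6 and 15.6%, 10.5% and 10.6% in dT. Psmb4, a proteasome subunit, had 2.08%, 5.23% and 3.11% in bulk, and 81.2%, 73.9% and 79.7% in N6. In these 3 genes every RT-RamDA primer set lay above bulk. Ldha, lactate dehydrogenase, had 15.5%, 22.7% and 12.0% in N6 and 0.512%, 0.211% and 0.140% in bulk, while dT had 0.174%, 0% and 0%. Below bulk in N6 were Ppp1r9a (0 counts in N6 against 602 in bulk, at least 120-fold lower in share) and Anp32a (0 against 430, at least 52.1-fold lower). With 0 counts in N6, both entered the fit through bulk alone, so their values are a description and their calls are not evidence of a difference. In dT the genes Etnk1, Tnrc6a, Zranb2 and Ogt were below bulk, Ogt by -3.99 ± 0.37 (edgeR, adjusted p = 0.0155). The members of Tnrc6a and Zranb2 had 0 CPM in dT and those of Etnk1 a mean of 0.03345 CPM. These 3 genes thus also entered the fit through bulk. Wnk1, Ubr4, Pfas and Fn1 were above bulk in dT, Fn1 by 3.3 ± 0.29 (edgeR, adjusted p = 0.0155). Each of these dT calls was lost in 3 of 10 alternative settings, and all were lost with any single bulk library left out. The N6 calls for Ppp1r9a and Anp32a were lost in 3 of 10 settings and those for Psmb4 and Ldha in 1. The N6 calls for Tuba1b and Tpt1 were kept in all 10.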

How the data were processed

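The deposited table holds expected or estimated counts per GENCODE transcript for 18 libraries, per the file headers, and its mm10 build and bcl2fastq 2.16.0.10 are named in the submitters' processing notes. Aligner, quantifier, strand and the handling of reads shared by near-identical copies: not given in the sources used here. The 92 ERCC spike-in entries were kept out of totals and tests, and 163 retained-intron transcripts of 58 genes named Rpl, Rps or Srsf were left out by the rule for members. No gene is targeted in the study.

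Estimated counts were rounded to whole numbers for testing. Transcripts entered the fit at a mean of 1 CPM or more. The mean was taken in bulk for the fit of the 15 RT-RamDA libraries, and over its 6 libraries for each fit with bulk. The fit used TMM scaling and quasi-likelihood tests in edgeR 4.0.16 (R 4.3.3), over all transcripts, with Benjamini-Hochberg adjustment. A second fit set each biotype's summed counts in a gene against the rest of the gene, with an effect for each library. There both parts had to reach 1 CPM by the same rule. The 15 RT-RamDA libraries were fitted together, and N6 and dT each with bulk. "Random primers alone against dT" is N6 and NSR against dT, "NSR against N6" and "dT added" compare 6 libraries with 6, within the other factor. Library-level values were compared by exact permutation tests, adjusted over 18 tests. Called means an adjusted p under 0.05. A log2 change of a group with 0 counts depends on the prior count, so its bound at 3 counts is given where such a gene is described by its size.

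Alternatives used limma 3.58.1, DESeq2 1.42.0, other filters and scalings and left-out libraries. The self-test on simulated data was run on each fit. Coordinates and sequences come from GENCODE vM21 by versioned identifier. The members, lists and tests were chosen with earlier results of these data known. Named genes were up to 8 higher and 8 lower per comparison by change, among those called with a gene total of 20 CPM or more and shares that do not overlap; the 12 highest in bulk and the 8 highest in dT; the 2 highest of each list; and Clk1, Clk4, Ogt, Tra2a, Ddx5 and Pou5f1. Replicate numbers stand for well rows in the labels, and libraries with the same number did not deviate together (correlations of -0.00684 to 0.0269), so no pairing was used. The result of 1 list of genes is not reported here.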

Additional observations from a re-analysis of the deposited data

Results flagged for a closer look

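The retained-intron share of the host genes' counts was 2.65 percentage points above bulk in N6 and 3.63 points below it in dT (-3.63 as a difference), so that every N6 library moved one way and every dT library the other. This difference between primer sets was not tested against bulk as an interaction, and both comparisons share the same 3 bulk libraries.

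The retained-intron transcripts of genes named Rpl, Rps or Srsf, which the report leaves out, summed to 636.9 CPM in N6, 892.4 in NSR, 2574 in dT, 1133 in N6dT, 1514 in NSRdT and 3428 in bulk. Among the primer sets the dT libraries were the highest for these 163 transcripts.

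Counts were also present for ERCC spike-ins in all groups, although no label names them, at 0.375% of the other counts in N6, 0.472% in NSR, 0.372% in dT, 0.379% in N6dT, 0.519% in NSRdT and 1.02% in bulk.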

How the results depend on the processing

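The share of host gene counts kept its direction and its side of the threshold under every alternative run for it other than leaving out libraries: including the left-out gene families, dropping the 10 most abundant members, dividing by length, and a mean over genes, chosen after seeing the data. Random primers against dT ranged from 6.2062 to 6.3675 points with 1 library left out, with adjusted p up to 0.09184, where 3 of 9 settings missed the threshold because fewer arrangements remain. Without ribosomal and mitochondrial RNA, the CPM difference became 19919 for random primers against dT (from -1470) and -4392.6 for dT added (from 84.994). For RT-RamDA against bulk it became -5610.3 (exact permutation, adjusted p = 0.302). The detection difference of NSR against N6 became 111.83 and missed the threshold (exact permutation, adjusted p = 0.2077). The CPM denominator and the thinning depth differ in these settings, and the cause of the changes was not tested. With 1 library left out, detection differed by 2578 to 2702.6 members for random primers against dT and by 210.63 to 285.43 for NSR against N6, where 3 of 9 and 2 of 12 settings missed the threshold.

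In abundance, random primers against dT gave 1707 members higher and 114 lower with DESeq2, 148 lower with library totals, 107 lower with no filter and 36 to 49 lower with 1 library left out. NSR against N6 gave 8 and 14 with DESeq2, 1 higher with library totals, and 5 and 2 with no filter. dT added gave 43 and 49 with DESeq2, 6 higher at 5 CPM, 36 and 29 with no filter, 2 lower with library totals and 2 to 9 lower with 1 library left out. N6 against bulk gave 325 and 307 with DESeq2, 92 and 359 with filterByExpr, 574 lower with library totals, 19 and 8 with no filter, and 7 to 154 higher and 0 to 419 lower with 1 library left out. dT against bulk gave 268 higher with DESeq2, 163 lower at 5 CPM, 3383 lower with no filter, and 8 to 171 higher and 0 to 2051 lower with 1 library left out.

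In the ratio within genes, random primers against dT gave 915 and 79 with limma (pseudocount 1), 1209 and 101 with limma (pseudocount 5), 193 and 8 on their own libraries, 34 lower at 5 CPM and 11 to 18 lower with 1 library left out. dT added gave 1 higher with either limma fit, at 5 CPM and with no filter, and 15 lower with limma (pseudocount 5), 10 at 5 CPM and 14 with no filter. N6 against bulk gave 78 and 25, or 141 and 32, with limma at the 2 pseudocounts, 56 higher at 5 CPM, 14 and 2 with no filter, and 5 to 96 higher and 0 to 122 lower with 1 library left out. dT against bulk gave 116 higher with limma (pseudocount 5), 43 and 136 at 5 CPM, and 0 to 157 higher and 0 to 1000 lower with 1 library left out. The cause of these shifts was not tested.

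With a replicate block, random primers against dT gave 266 higher and 40 lower in abundance and 295 and 14 in the ratio, and dT added gave 3 lower in abundance. Of 117 named results over 2008 settings, 1692 kept the call and direction, 315 lost the call and 1 reversed: Ncl-002, from 0.51 to -0.36 with library totals (adjusted p = 0.00722), where the median of all transcripts moves by -0.65. Depth limits transcripts of few counts: a member at 0 in the 3 dT libraries can still hold up to 3 counts.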
